A study of Mus musculus with 12 samples.

Results

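Epididymal white adipose tissue (eWAT) of leptin-deficient obese mice was compared with that of lean mice, both given vehicle, in the cells of the stromal vascular fraction (SVF). The comparison was set by the labels alone: 2 libraries labelled eWAT ob/ob-Veh against 2 labelled eWAT WT-Veh, which are 4 of the 12 libraries of the series. ob/ob-Veh mice were Lepob/Lepob and WT-Veh mice were C57BL/6J. All were males aged 12 weeks and received methylcellulose diluted in Dulbecco's medium by oral gavage, mornings and evenings, for 3 days, and each library was made from 1 mouse, so that every group had n = 2. For each library, 300 mg of tissue taken from several places of the depot was digested with collagenase II for 40 min, the floating layer with the mature adipocytes was removed, red cells were lysed, and the remaining cells were loaded for 10x Genomics 3′ sequencing. The ob/ob mouse lacks leptin in the whole body from birth on, so effects of leptin loss on a cell and effects of the obesity that follows cannot be told apart here. The question addressed was how obesity changes the number and the transcripts of each SVF cell type.

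The SVF holds what is left of fat once its adipocytes are gone. Its fibroblast-like adipocyte progenitor cells (APCs) give rise to new adipocytes and lay down the collagen scaffold of the depot, endothelial cells (ECs) line the vessels and pass fatty acids on, and mesothelial cells cover the surface of visceral fat. Resident perivascular macrophages (PVMs), which carry Lyve1, Cd163 and Cd209 family lectins, sit along the vessels, whereas lipid-associated macrophages (LAMs), which carry Trem2, Gpnmb and Cd9, gather around dying adipocytes, take up their lipid and are known for increasing in obese fat. Leptin is made by mature adipocytes and signals through its receptor and the JAK-STAT pathway.

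A barcode was kept with 700 to 22000 unique molecular identifiers (UMIs, each an RNA molecule counted once), 200 to 6000 genes and under 25% mitochondrial UMIs. This left 14718 and 6472 barcodes in the libraries labelled WT-Veh, replicates 1 and 2, and 9165 and 7751 in those labelled ob/ob-Veh, 38106 of the 57613 kept in all eWAT libraries. The kept barcodes held 42070558 and 37141286 UMIs in the WT-Veh libraries and 50406666 and 41877085 in the ob/ob-Veh libraries. Median UMIs per kept barcode were 2046 in WT-Veh replicate 1 and between 4398.5 and 4717 in the other 3 libraries. The limit of 22000 UMIs removed 668 barcodes of WT-Veh replicate 2 and 22 to 111 of each other vehicle library, and the pairs of vehicle libraries shared 14 to 32 barcodes. At or above the mitochondrial limit lay 53 and 179 barcodes of the WT-Veh libraries and 732 and 1861 of the ob/ob-Veh libraries. No transcript tests the genotype labels: Lep, whose ob mutation leaves a transcript, stood at 0.784 and 0.996 CPM (UMIs per 1000000) in the WT-Veh libraries and at 0.139 and 1.03 CPM in the ob/ob-Veh libraries, and the groups overlapped. LAM-like cells, the kind known from obese fat, were abundant in the libraries labelled WT-Veh and nearly missing from those labelled ob/ob-Veh. The 2 libraries labelled eWAT ob/ob-Rosi, whose mice were ob/ob and took 30 mg/kg of rosiglitazone, lay in the same APC and macrophage clusters as the WT-Veh libraries. Whether cells that float with the adipocytes were lost alike from lean and obese tissue was not tested. The labels were kept as given, every direction below holds as far as they do, and WT-Veh and ob/ob-Veh stand for the libraries so labelled.

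Barcodes were clustered without integration of libraries and each cluster took the class of its marker genes. Most of the SVF was made up of APC-like and macrophage-like cells, and their balance differed between the groups. APC-like cells made up 25.3% and 26.2% of the kept barcodes in WT-Veh and 45.4% and 39.4% in ob/ob-Veh. Macrophage-like cells went the other way, with 55.5% and 43.1% in WT-Veh and 21.6% and 25.2% in ob/ob-Veh. Monocyte-like cells made up 4.16% and 2.77% in WT-Veh against 10.2% and 6.80% in ob/ob-Veh, and mesothelial-like cells 1.11% and 1.1% against 6.47% and 6.35%. None of these 4 classes overlapped between the groups. Nor did the dendritic-cell-like, B-cell-like, mast-cell-like and lymphatic EC-like classes, which did not pass the test below. The monocyte-like class held 2 clusters that went opposite ways: that led by Lyz1, Ear2 and Fcrls held 1.71% and 1.31% of the barcodes in WT-Veh and 8.77% and 6.06% in ob/ob-Veh, while that led by Chil3, Cx3cr1 and Gpr141 held 2.45% and 1.45% in WT-Veh and 1.41% and 0.735% in ob/ob-Veh. The first, which held the whole increase, had 3 of 8 monocyte and 7 of 8 macrophage markers in at least 20% of its barcodes, and its mean log2 level above the average cluster was 1.29 for the monocyte and 0.59 for the macrophage markers. The second had 5 and 8 of them, with 3.13 and 1.21, so the increase lay in the cluster with fewer monocyte markers. In an edgeR quasi-likelihood test of the numbers, with p-values adjusted over 13 classes and subclasses, the log2 change of the share was 0.72 (SE 0.20, adjusted p = 0.036) for APC-like, -1.08 (SE 0.24, adjusted p = 0.024) for macrophage-like, 1.29 (SE 0.33, adjusted p = 0.034) for monocyte-like and 2.54 (SE 0.40, adjusted p = 0.0072) for mesothelial-like cells. Shares add to a whole: counted among the barcodes outside the macrophage-like clusters, the changes of APC-like and monocyte-like cells were 0.10 and 0.63 and no longer passed. In a fit blocked on the replicate numbers the APC-like change was 0.72 and did not pass (adjusted p = 0.12). Leaving out 1 vehicle library at a time kept every direction of these 4 classes, with 0.61 to 0.82 for APC-like, -1.25 to -0.88 for macrophage-like, 0.97 to 1.62 for monocyte-like and 2.52 to 2.55 for mesothelial-like cells. Only the mesothelial-like call held in all 4 of these fits. The APC-like call was lost in all 4 (adjusted p = 0.077 to 0.18), the macrophage-like call in 3 (held only without WT-Veh replicate 2, adjusted p = 0.047 to 0.16 over the 4) and the monocyte-like call in 3 (held only without WT-Veh replicate 1, adjusted p = 0.043 to 0.17 over the 4).

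Within the macrophages LAM-like cells were scarce in ob/ob-Veh. LAM-like clusters held 21.8% (exact 95% binomial interval 21.2 to 22.5) and 16.2% (15.3 to 17.2) of the barcodes in WT-Veh and 0.349% (0.239 to 0.493) and 0.735% (0.557 to 0.952) in ob/ob-Veh, that is 3212 and 1051 barcodes against 32 and 57. That led by Mmp12, Gpnmb and Spp1 held 996 and 349 against 4 and 9. That led by Cxcl2, Gdf15 and Hilpda held 1345 and 568 against 14 and 41. That led by Cenpf, Prc1 and Hist1h1b, with Top2a and Mki67 of dividing cells, held 871 and 134 against 14 and 7. PVM-like clusters held 15.4% and 13.6% in WT-Veh and 20.8% and 23.9% in ob/ob-Veh, but 24.2% and 22.1% against 20.8% and 24.2% with finer clusters, and 19.2% and 17.6% against 14.1% and 18.5% with barcodes assigned singly, so no direction is given for them. Macrophage-like clusters that met the naming rule of neither subset were likewise scarce in ob/ob-Veh, with 2683 and 857 in WT-Veh and 42 and 45 in ob/ob-Veh. Nearly all of these barcodes lay in a cluster led by Ms4a7, Tnfaip8l2 and Lyz2. Its mean log2 level above the average cluster was 1.29 for LAM and 0.71 for PVM markers. It had fewer than the 6 LAM markers that the rule asked for. These shares are given without a test, since the split into subsets rests on genes that themselves differ between the groups, and the intervals cover counting error only.

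**Figure D1:**
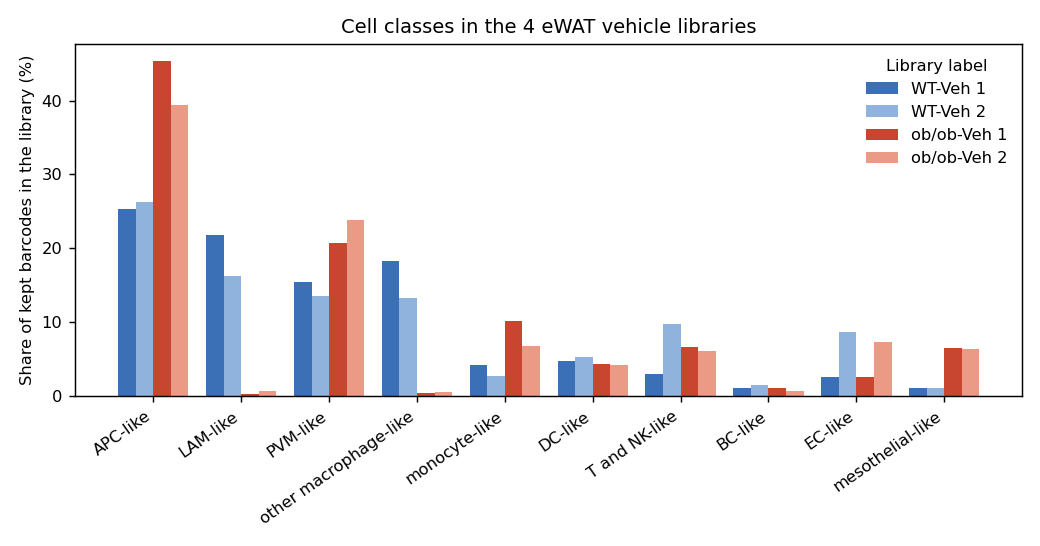
Share of kept barcodes (%, y axis, from 0) in each class, with 1 bar per library, WT-Veh against ob/ob-Veh. APC-like, monocyte-like and mesothelial-like bars are taller in both ob/ob-Veh libraries. LAM-like and other macrophage-like bars are taller in both WT-Veh libraries, whereas T and NK-like and EC-like bars overlap between the groups. PVM-like bars are taller in both ob/ob-Veh libraries, which did not hold with finer clusters or with barcodes assigned singly.

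B-cell-like (BC), dendritic-cell-like (DC), EC-like, T and NK-like, mast-cell-like and lymphatic EC-like numbers did not pass the test. EC-like shares differed more within groups than between them, at 2.64% and 8.64% in WT-Veh and 2.66% and 7.34% in ob/ob-Veh (log2 change -0.17, SE 0.79). T and NK-like cells made up 3.01% and 9.72% in WT-Veh and 6.61% and 6.05% in ob/ob-Veh (log2 change -0.00, SE 0.69). DC-like shares lay between 4.18% and 5.25% in all 4 libraries (log2 change -0.23, SE 0.19). No lymphatic EC-like barcode was found among the 6472 of WT-Veh replicate 2, which allows a share of up to 0.0464%, and the other 3 libraries held 33 to 65.

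For the transcripts, UMIs were summed per class and library, and compared by edgeR's quasi-likelihood test. A gene was called where p, adjusted over all genes tested after Benjamini and Hochberg, was 0.05 or lower and the change was at least 1.1-fold. Levels are in CPM of the class, in the order replicate 1 and replicate 2, and log2 fold changes are ob/ob-Veh minus WT-Veh. In the sum over whole libraries, where more cells of a type and more RNA per cell cannot be told apart, 1675 of 15845 genes (10.6%) were called higher and 1707 (10.8%) lower. Scaling by library size alone in place of TMM factors turned this into 2234 higher and 883 lower and raised the median of all genes by 0.29 on the log2 scale. The same median rose by 0.21 in DC-like, 0.19 in macrophage-like, LAM-like and T and NK-like, 0.12 in BC-like and 0.11 in PVM-like cells, and by under 0.1 in the other classes. For every gene named below as called, both libraries of one group lay above both of the other unless an overlap is stated.

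In APC-like cells of ob/ob-Veh, 9 of 18 collagens and 7 of 28 other matrix genes were lower. So were 4 of 15 metalloproteinases and inhibitors, of which Mmp12 is also a LAM marker. Nt5e, Sult1e1, Ptgs2, Igf1 and 7 of 25 TNF and NF-kappaB genes were higher. Of 13170 genes tested, 386 (2.93%) were called higher and 576 (4.37%) lower. Different clusters held the APC-like cells of the 2 groups: 2650 and 791 barcodes of WT-Veh but 73 and 130 of ob/ob-Veh lay in a cluster led by Cilp, Hmcn2 and Mgp, and 18 and 47 of WT-Veh but 1882 and 1963 of ob/ob-Veh in a cluster led by Agt, Sult1e1 and C7. Another cluster, led by Nov, Pi16 and Cd55, of which Pi16 and Cd55 are known from early progenitors, held 230 and 117 barcodes of WT-Veh and 1477 and 601 of ob/ob-Veh. Ptgs2 was among the leading genes of that cluster. A further cluster, led by Timp1, Cxcl14 and Fbln7, held 823 and 735 barcodes of WT-Veh and 18 and 27 of ob/ob-Veh. Mgp, Mmp3, Ndufa4l2, Bgn, Pcolce and Col8a1 were among its leading genes. Median UMIs per barcode, over all eWAT libraries, were 1519 in the cluster led by Cilp and 4550 in that led by Agt. They were 6239 in that led by Nov and 4905 in that led by Timp1. The part of depth in the split of the groups between clusters was not tested. Cell mix and change per cell cannot be told apart in this sum.

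Nt5e (ENSMUSG00000032420, GRCm38 chromosome 9, 88327197 to 88372092), which encodes the adenosine-producing ectonucleotidase CD73, stood at 0.770 and 0.239 CPM in WT-Veh and 26.6 and 34.8 CPM in ob/ob-Veh (log2 fold change 5.91, SE 0.85, adjusted p = 0.0032). Sult1e1 (ENSMUSG00000029272, GRCm38 chromosome 5, 87575969 to 87591594), the estrogen sulfotransferase, went from 42.2 and 26.2 CPM to 1289 and 1207 CPM (log2 fold change 5.12, SE 0.49, adjusted p = 0.00043). Ptgs2, the inducible cyclooxygenase COX-2 of prostaglandin synthesis, stood at 35.6 and 14.4 CPM in WT-Veh against 582 and 327 CPM in ob/ob-Veh (log2 fold change 4.13, SE 0.89, adjusted p = 0.02), and lost its call without WT-Veh replicate 1 or without WT-Veh replicate 2. Both ob/ob-Veh libraries were many times above both WT-Veh libraries for all 3. Other increases were smaller: Pde11a, a phosphodiesterase of cyclic nucleotides, rose from 1.54 and 1.44 CPM to 17.7 and 30.9 CPM (log2 3.94), Chst1, a carbohydrate sulfotransferase, from 4.31 and 11.5 CPM to 92.9 and 105 CPM (log2 3.58), and Xpnpep2, a membrane aminopeptidase, from 4.47 and 4.19 CPM to 57.1 and 44.5 CPM (log2 3.51). Lrrn1, a leucine-rich repeat membrane protein, rose from 1.39 and 2.75 CPM to 15.8 and 30.4 CPM (log2 3.36), and Prokr1, a prokineticin receptor, from 2.31 and 3.71 CPM to 25.4 and 39.0 CPM (log2 3.32, no call without WT-Veh replicate 1). Their SEs lay between 0.40 and 0.51 and their adjusted p between 0.00055 and 0.004.

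The named decreases included several secreted matrix proteins. Tnc (ENSMUSG00000028364, GRCm38 chromosome 4, 63959785 to 64047015), the matrix glycoprotein tenascin C of growing and injured tissue, fell from 67.9 and 28.5 CPM to 0.227 and 0.232 CPM (log2 fold change -7.73, SE 0.57, adjusted p = 0.00014). Mgp (ENSMUSG00000030218, GRCm38 chromosome 6, 136872435 to 136875823), matrix Gla protein, an inhibitor of calcification and among the most abundant APC transcripts of WT-Veh, fell from 9011 and 8847 CPM to 421 and 573 CPM (log2 fold change -4.25, SE 0.28, adjusted p = 9e-05). Timp1, an inhibitor of metalloproteinases, fell from 920.1 and 509 CPM to 33.6 and 27.1 CPM (log2 fold change -4.63, SE 0.48, adjusted p = 0.0006). The protease and its inhibitor fell side by side, since Mmp3, stromelysin 1, went from 161 and 123 CPM to 8.97 and 4.58 CPM (log2 fold change -4.42, SE 0.43, adjusted p = 0.00045). Also lower were Cthrc1, a secreted protein of collagen-producing cells (35.6 and 26.2 CPM in WT-Veh against 0.984 and 1.86 CPM in ob/ob-Veh, log2 -4.56), Kng2, a kininogen (31.4 and 34.6 CPM in WT-Veh against 1.4 and 2.32 CPM in ob/ob-Veh, log2 -4.24), Lypd1 (13.1 and 30.0 CPM in WT-Veh against 1.29 and 1.28 CPM in ob/ob-Veh, log2 -4.10) and Ndufa4l2, a mitochondrial protein induced by hypoxia (59.3 and 105 CPM in WT-Veh against 3.25 and 9.57 CPM in ob/ob-Veh, log2 -3.79), with SEs of 0.35 to 0.57 and adjusted p of 0.00015 to 0.0039.

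**Figure D2:**
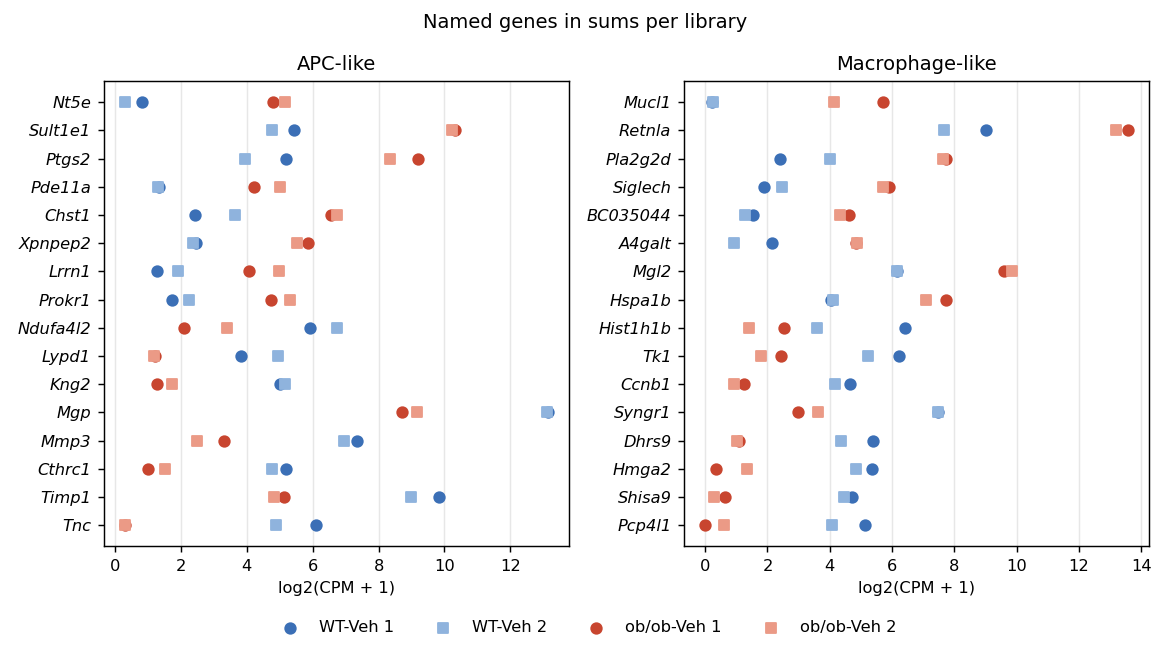
Levels, as log2(CPM + 1) on the x axis, of the genes named in APC-like and macrophage-like cells, with 1 point per library and the groups in different colours. For each gene the 2 WT-Veh points lie on one side of the 2 ob/ob-Veh points, as for Sult1e1 (42.2 and 26.2 against 1289 and 1207 CPM in APC-like cells).

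Collagens gave the list with the most lower calls among matrix genes. Of 18 collagen genes tested in APC-like cells, 9 were called lower and 0 higher by edgeR, with a median log2 change of -1.03 beside -0.01 over all genes tested. Col1a1, the main chain of type I collagen, fell from 4263 and 4608 CPM to 1515 and 1816 CPM (log2 -1.48, SE 0.25), Col4a2 of the basement membrane from 2159 and 2192 CPM to 492 and 770.2 CPM (log2 -1.87, SE 0.29), and Col8a1, a short-chain collagen, from 162 and 101 CPM to 7.30 and 13.4 CPM (log2 -3.79, SE 0.43). Col3a1, Col4a1, Col6a1, Col6a3, Col12a1 and Col18a1 were the other 6, with log2 changes of -1.35 to -1.08. Of 28 matrix glycoproteins and proteoglycans, edgeR called 7 lower and 0 higher (median -0.40), and DESeq2 8 lower and 3 higher. Among the 7 were Bgn, the proteoglycan biglycan (2472 and 3318 CPM in WT-Veh against 661 and 819 CPM in ob/ob-Veh, log2 -2.03), Pcolce, which helps to cleave procollagen (509.8 and 534 CPM in WT-Veh against 129 and 164 CPM in ob/ob-Veh, log2 -1.91), and the microfibril protein Mfap4 (log2 -1.79). Of 15 metalloproteinases and inhibitors, edgeR called Mmp3, Mmp11, Mmp12 and Timp1 lower and 0 higher, and DESeq2 called 7 lower and 2 higher. Mmp12 is a LAM marker and led a LAM-like cluster, and the part of macrophage RNA in its APC-like level was not tested. The median of the collagens lay between -1.08 and -0.91 whichever vehicle library was left out, with 2 to 4 of the 18 still called. Col1a1, Col3a1 and Lum, lower here, are also markers by which APC clusters were named.

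**Figure D3:**
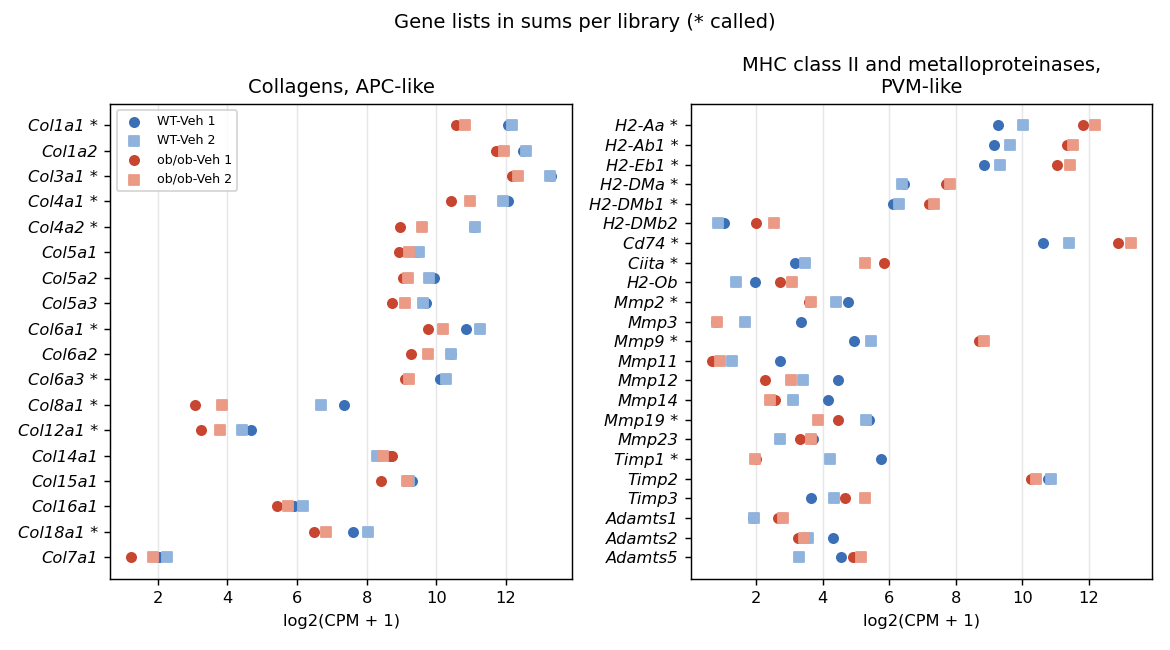
Levels per library, as log2(CPM + 1) on the x axis, of collagen genes in APC-like cells (left) and of MHC class II and metalloproteinase genes in PVM-like cells (right), with called genes starred. The points of ob/ob-Veh lie below those of WT-Veh for the 9 starred collagens, and above them for the 7 starred MHC class II genes and for Mmp9.

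TGF-beta is known for driving matrix production. Among 19 of its targets and ligands 6 were lower and 3 higher (median -0.56): the targets Ctgf (290.1 and 80.7 CPM in WT-Veh against 28.5 and 21.3 CPM in ob/ob-Veh, log2 -2.98) and Postn, the matrix protein periostin (1065 and 1573 CPM in WT-Veh against 206 and 220.1 CPM in ob/ob-Veh, log2 -2.68), were among those lower, as were Ltbp2, Pmepa1 and the ligand Tgfb1. Higher were the ligand Tgfb2 (35 and 53.4 CPM in WT-Veh against 91.2 and 117 CPM in ob/ob-Veh, log2 1.17), Ltbp1, which stores the ligand in the matrix, and Bambi, a decoy receptor (10.6 and 12.4 CPM in WT-Veh against 31.7 and 54.1 CPM in ob/ob-Veh, log2 1.81). Leaving out 1 vehicle library left 2 to 6 lower and 0 or 1 higher.

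By edgeR, the TNF and the immediate early lists of inducible genes held increases and no decreases. Chemokine ligands were higher in 1 and lower in 5 of 23, and complement genes lower in 6 of 17. The complement list includes the macrophage markers C1qa, C1qb and C1qc, and the part of macrophage RNA in its count was not tested. Of 25 genes of TNF and NF-kappaB signalling, DESeq2 called 9 higher and 1 lower, and edgeR 7 higher and 0 lower (median 0.47): Ptgs2, the cytokine Il6 (41.4 and 14.7 CPM in WT-Veh against 247 and 143 CPM in ob/ob-Veh, log2 2.74), the chemokine Cxcl10 (1.54 and 3.83 CPM in WT-Veh against 37.3 and 41.1 CPM in ob/ob-Veh, log2 3.78), the NF-kappaB regulators Nfkbiz, Birc3 and Bcl3, and Zfp36, which shortens the life of cytokine mRNAs (595 and 554 CPM in WT-Veh against 2150.3 and 1589 CPM in ob/ob-Veh, log2 1.65). Of 23 immediate early genes, which tissue digestion is known to induce within minutes, 9 were higher and 0 lower (median 0.99), such as Egr1 (1081 and 1355 CPM in WT-Veh against 3519 and 2910.0 CPM in ob/ob-Veh, log2 1.36), Myc (53.0 and 30.2 CPM in WT-Veh against 229 and 144 CPM in ob/ob-Veh, log2 2.11) and Hspa1b (43.1 and 50.0 CPM in WT-Veh against 142 and 178 CPM in ob/ob-Veh, log2 1.71). The part of digestion in the inflammatory genes was not tested. Both counts lean on single libraries, with 1 TNF gene and 0 immediate early genes left without WT-Veh replicate 1, and 6 and 9 left without ob/ob-Veh replicate 2.

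Growth factor and cytokine receptor pathways showed a few changes. Of 14 insulin and IGF genes, Igf1, the growth factor itself, rose from 220.2 and 203 CPM to 779 and 1062 CPM (log2 fold change 2.04, SE 0.29, adjusted p = 0.003), Irs1, which relays the insulin signal, rose from 6.16 and 10.3 CPM to 23.2 and 35.5 CPM (log2 fold change 1.75, SE 0.33, adjusted p = 0.011), and Igfbp7, a binding protein, fell from 2879 and 2262 CPM to 948 and 1169 CPM (log2 -1.36). Of 15 JAK-STAT genes, the feedback inhibitors Socs3 (199 and 236 CPM in WT-Veh against 817 and 637 CPM in ob/ob-Veh, log2 1.7) and Socs1 (29.1 and 27.2 CPM in WT-Veh against 93.3 and 90.6 CPM in ob/ob-Veh, log2 1.65) were called higher by edgeR, and the other 13 did not pass there. DESeq2 called 2 of the list higher and 1 lower. In the adipogenesis and PPAR list edgeR called 6 of 28 lower and 0 higher, and DESeq2 7 lower and 4 higher. Lpl, lipoprotein lipase, went from 2097 and 2159 CPM to 949.9 and 938 CPM (log2 -1.23). The other 5 called by edgeR, Gpd1, Cd36, Plin2, Fabp4 and Ucp2, have higher levels in EC-like or macrophage-like cells than in APC-like cells. Of the complement genes, C4b was lower (473 and 349 CPM in WT-Veh against 81.5 and 102 CPM in ob/ob-Veh, log2 -2.25). Cx3cl1, the chemokine fractalkine, fell from 12.5 and 14.5 CPM to 0.227 and 0.406 CPM (log2 -5.49) and Cxcl14 from 221 and 119.7 CPM to 19.0 and 46.1 CPM (log2 -2.52). Of 20 VEGF, angiopoietin and lipid uptake genes 4 were higher and 6 lower (median -0.48). The endothelial receptor gene Tek (40.5 and 37.2 CPM in WT-Veh against 116 and 99.8 CPM in ob/ob-Veh, log2 1.42) and the angiopoietin Angpt4 (log2 2.45) were among those higher, and Angpt2 (log2 -2.12) and Flt1, a VEGF receptor (log2 -2.39), both with higher levels in EC-like cells, among those lower. Of the housekeeping lists, edgeR called 0 of 83 ribosomal protein genes (2 at an unadjusted p under 0.05, 0 called by DESeq2). It also called 0 of 33 oxidative phosphorylation genes (3 and 1) and 0 of 30 translation factors (3 and 2). Their medians were -0.05, -0.27 and -0.07, beside -0.01 over all genes tested. In simulated counts this test recovered 16.5% of 2-fold changes in APC-like sums, so 0 calls do not show that a list was unchanged.

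RNA of other cells moved with the groups in the APC-like sums. The 8 macrophage markers summed to 1556 and 979 CPM in WT-Veh and to 212 and 293 CPM in ob/ob-Veh, with none at 0. Of the genes called lower, 338 of 576 (58.7%) had at least 2 times the level in another class, against 100 of 386 (25.9%) of those called higher. LAM genes such as Trem2 (199 and 148 CPM in WT-Veh against 2.23 and 4.52 CPM in ob/ob-Veh) and Lgals3 (1000.3 and 811 CPM in WT-Veh against 57.5 and 89.0 CPM in ob/ob-Veh) were among them, and 19 of 26 genes of the LAM programme were called lower. The part of free RNA and of doublets in these was not tested. In the libraries of the group where each stood higher, Sult1e1, Tnc, Mgp and Col1a1 had their highest level among the classes compared in APC-like cells.

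In the macrophage-like sum 1910 of 13400 genes (14.3%) were called higher and 2297 (17.1%) lower in ob/ob-Veh. With library size alone the split was 2590 higher and 1657 lower. Among the lists described below, most perivascular macrophage genes were higher, and most LAM programme, ribosomal protein and oxidative phosphorylation genes were lower. LAM-like clusters held 17949128 and 9975383 of the 29009077 and 19982571 macrophage-like UMIs in WT-Veh, but 230498 and 485138 of 7184628 and 9833229 in ob/ob-Veh, so cell mix and change per cell cannot be told apart in this sum. The LAM and PVM lists named the subsets and are given as a description.

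Mgl2 (ENSMUSG00000040950, GRCm38 chromosome 11, 70130329 to 70137550), the lectin CD301b, rose from 70.8 and 69.9 CPM to 770.0 and 915 CPM (log2 fold change 3.39, SE 0.25, adjusted p = 0.00011). Retnla, the secreted RELM-alpha of alternatively activated macrophages, rose from 521 and 204 CPM to 12233 and 9297 CPM (log2 fold change 4.69, SE 0.83, adjusted p = 0.0035), and Pla2g2d, a secreted phospholipase A2, from 4.24 and 15.2 CPM to 213 and 198 CPM (log2 fold change 4.25, SE 0.51, adjusted p = 0.00066). Neither group came near the other for these 3 genes. Smaller transcripts were Siglech, a sialic acid-binding lectin (2.72 and 4.50 CPM in WT-Veh against 58.3 and 50.8 CPM in ob/ob-Veh), A4galt, which makes the glycolipid Gb3 (3.38 and 0.901 CPM in WT-Veh against 27.7 and 28.3 CPM in ob/ob-Veh), BC035044 (1.90 and 1.45 CPM in WT-Veh against 23.4 and 19.2 CPM in ob/ob-Veh) and Mucl1, a mucin-like protein (0.172 and 0.200 CPM in WT-Veh against 51.8 and 16.6 CPM in ob/ob-Veh). Hspa1b, the stress-induced chaperone Hsp70, stood at 15.3 and 16.2 CPM in WT-Veh against 209.6 and 137 CPM in ob/ob-Veh (log2 3.27).

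Syngr1 (ENSMUSG00000022415, GRCm38 chromosome 15, 80091334 to 80119501), a vesicle protein of the synaptogyrin family, fell from 175 and 178 CPM to 6.82 and 11.2 CPM (log2 fold change -4.48, SE 0.33, adjusted p = 0.00011). Some genes known from dividing cells fell: the cyclin Ccnb1 from 24.0 and 17.1 CPM to 1.39 and 0.915 CPM (log2 -4.38), the thymidine kinase Tk1 from 73.5 and 36.5 CPM to 4.45 and 2.44 CPM (log2 -4.23) and the histone Hist1h1b from 84.8 and 11.1 CPM to 4.73 and 1.63 CPM (log2 -4.19, no call without WT-Veh replicate 1). The proliferation markers together summed to 539 and 271 CPM of the macrophage-like UMIs in WT-Veh and to 63.7 and 50.5 CPM in ob/ob-Veh. Hmga2, a chromatin protein of growing cells, stood at 39.8 and 27.6 CPM in WT-Veh against 0.278 and 1.53 CPM in ob/ob-Veh (log2 -5.31), Shisa9, a membrane protein known from synapses, at 25.4 and 21.1 CPM in WT-Veh against 0.557 and 0.203 CPM in ob/ob-Veh (log2 -6.20), Dhrs9, a dehydrogenase, at 41.3 and 19.5 CPM in WT-Veh against 1.11 and 1.02 CPM in ob/ob-Veh (log2 -5.04) and Pcp4l1 at 33.9 and 15.7 CPM in WT-Veh against 0 and 0.508 CPM in ob/ob-Veh (log2 -6.60).

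Of the LAM programme 23 of 26 genes were lower, with a median of -2.21, and only the cholesterol exporter Abca1 was higher (126 and 188 CPM in WT-Veh against 626 and 363 CPM in ob/ob-Veh, log2 1.48). Trem2, the lipid receptor, stood at 1456 and 1468 CPM in WT-Veh against 108 and 125 CPM in ob/ob-Veh (log2 -3.84) and Gpnmb, a glycoprotein of lipid-laden macrophages, at 1157 and 1042 CPM in WT-Veh against 80.3 and 52.3 CPM in ob/ob-Veh (log2 -4.24). Of 22 genes of perivascular and alternative macrophages 16 were higher and 2 lower (median 1.68), with Timd4, a receptor for dying cells, from 6.20 and 8.01 CPM to 74.2 and 74.3 CPM (log2 3.20) and the chemokine Ccl24 from 49.5 and 66.8 CPM to 661 and 558 CPM (log2 3.21). Arginase 1 (Arg1) was one of the 2 that were lower, from 46.7 and 13.7 CPM to 12.5 and 7.02 CPM (log2 -1.85), and Ccl8 the other. Without WT-Veh replicate 1 the number higher was 7, and without any other vehicle library 14 or 15.

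Biosynthesis and energy lists of the macrophage-like sum held mainly decreases. Of all genes tested there, 14.3% were called higher and 17.1% lower. Ribosomal protein genes were lower in 53 of 84 and higher in 1 (median -0.98), 32 being lower with library size alone and 3, 24, 4 and 55 without WT-Veh replicate 1 or 2 or ob/ob-Veh replicate 1 or 2. Of 33 nuclear oxidative phosphorylation genes 22 were lower (median -1.0), such as Atp5g1, a subunit of ATP synthase (374 and 272 CPM in WT-Veh against 93.3 and 151 CPM in ob/ob-Veh, log2 -1.60), and of 30 translation factors 16 were lower and 1 higher. Glycolysis and hypoxia genes were lower in 10 of 21 and higher in 1 (median -1.15), with Slc2a1, the glucose transporter GLUT1, at 8.48 and 8.81 CPM in WT-Veh against 2.09 and 2.34 CPM in ob/ob-Veh, Pkm, pyruvate kinase, at 567 and 538 CPM in WT-Veh against 144 and 159 CPM in ob/ob-Veh and Ldha, lactate dehydrogenase, at 438 and 332 CPM in WT-Veh against 121 and 141 CPM in ob/ob-Veh, while Hif1a, the hypoxia factor itself, rose from 51.8 and 46.5 CPM to 131 and 112 CPM. Cholesterol synthesis genes were lower in 8 of 20 and higher in 1, among them Sqle, squalene epoxidase (9.93 and 10.4 CPM in WT-Veh against 1.67 and 1.93 CPM in ob/ob-Veh, log2 -2.68), and Fdps, farnesyl diphosphate synthase (33.2 and 20.7 CPM in WT-Veh against 4.73 and 4.68 CPM in ob/ob-Veh, log2 -2.72). Lysosomal genes were lower in 11 of 27 and higher in 1, such as the cathepsin genes Ctsk (275 and 282 CPM in WT-Veh against 19.6 and 20 CPM in ob/ob-Veh) and Ctsl (3214 and 3071 CPM in WT-Veh against 562 and 558 CPM in ob/ob-Veh).

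Among signalling lists of the macrophage-like sum the directions were mixed. TNF and NF-kappaB genes were higher in 6 and lower in 4 of 25, and TGF-beta genes higher in 3 and lower in 6 of 19. In all, 40% of the TNF, 47.4% of the TGF-beta and 37.5% of the JAK-STAT genes were called, beside 31.4% of all genes tested. Of all genes tested 14.3% were higher and 17.1% lower, so these counts are not far from those of any genes. Immediate early genes were higher in 17 of 23 and lower in 0 (median 1.41), with Egr1 at 717 and 1094 CPM in WT-Veh against 5229 and 4368 CPM in ob/ob-Veh, and 5 to 16 were called when 1 vehicle library was left out. Insulin and IGF genes were higher in 9 of 14 and lower in 2: the receptors Insr (16.9 and 20.3 CPM in WT-Veh against 79.9 and 55.8 CPM in ob/ob-Veh, log2 1.68) and Igf1r (18.5 and 29.7 CPM in WT-Veh against 91.4 and 109 CPM in ob/ob-Veh, log2 1.88) rose, and Igf2r, which carries lysosomal enzymes and clears IGF2, fell from 89.0 and 95.1 CPM to 5.15 and 10.8 CPM (log2 -3.71). Of 16 leptin receptor and JAK-STAT genes 6 were higher, Stat3, the transcription factor downstream of the leptin receptor among many others, from 102 and 173 CPM to 426 and 524 CPM (log2 1.60). Mmp9, gelatinase B, rose from 8.20 and 16.2 CPM to 396 and 430.1 CPM (log2 4.91). In the lipid list Lpl fell from 2349 and 2653 CPM to 247 and 493 CPM and Pdk4, which holds back glucose oxidation, rose from 4.45 and 2.80 CPM to 43.1 and 23.1 CPM. Of the genes called lower, 511 of 2297 had at least 2 times the level in another class, and of those called higher 707 of 1910.

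PVM-like cells held 4807531 and 5008070 UMIs in WT-Veh and 6790847 and 9068843 in ob/ob-Veh. In ob/ob-Veh they had more MHC class II, Mmp9 and Mgl2 transcripts and fewer of Ccl8, Vsig4 and the LAM programme. Of 11231 genes 171 (1.52%) were called higher and 210 (1.87%) lower, and 220 higher and 150 lower with library size alone. The calls depended on all 4 libraries, since leaving out any 1 vehicle library left 48 to 82 in all. PVM-like cells of WT-Veh and ob/ob-Veh lay in different clusters. That led by Ccl8, C6 and Fcna held 2265 and 871 barcodes of WT-Veh but 74 and 38 of ob/ob-Veh. That led by Mmp9, Pla2g2d and Cd209g held 7 and 9 against 1828 and 1815. Cell mix and change per cell cannot be told apart in this sum either.

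MHC class II genes, which present antigen to CD4 T cells, were higher in 7 of 9 and lower in 0 in PVM-like cells, with a median of 1.94 beside -0.01 over all genes tested there. H2-Aa, the alpha chain, rose from 615 and 1043 CPM to 3607 and 4688 CPM (log2 fold change 2.21, SE 0.37, adjusted p = 0.017), and Ciita, the master regulator of the class II genes, from 7.90 and 9.98 CPM to 56.3 and 37.7 CPM (log2 fold change 2.29, SE 0.31, adjusted p = 0.0057). Cd74, the invariant chain, went from 1569 and 2708 CPM to 7468 and 9991 CPM (log2 1.92). These transcripts have higher levels in DC-like or monocyte-like cells, whose part here was not tested: DC markers in the PVM-like sum stood at 91.7 and 65.7 CPM in WT-Veh and 244 and 205 CPM in ob/ob-Veh. The count was 0, 0, 4 and 2 when the first or second WT-Veh or the first or second ob/ob-Veh library was left out, 1 (median 0.46) with finer clusters and 2 (median 1.04) with barcodes assigned singly.

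Mmp9 rose from 29.5 and 43.1 CPM to 417 and 465 CPM (log2 3.49) and Mgl2 from 165 and 125 CPM to 804 and 986 CPM (log2 2.51). Pdk4 rose from 4.78 and 2.60 CPM to 45.4 and 24.3 CPM (log2 fold change 3.13, SE 0.44, adjusted p = 0.0077), with no call without either WT-Veh library. Other increases were Dnase1l3, a nuclease that clears extracellular DNA (2.5 and 2.00 CPM in WT-Veh against 20.6 and 20.4 CPM in ob/ob-Veh, log2 3.07), Pilrb2, an activating immune receptor (3.95 and 2.40 CPM in WT-Veh against 31.2 and 27.8 CPM in ob/ob-Veh, log2 3.10), and BC035044 (3.74 and 2.60 CPM in WT-Veh against 23.9 and 20.6 CPM in ob/ob-Veh, log2 2.69). Among the named decreases, Ccl8, a monocyte chemoattractant, fell from 4589 and 4922 CPM to 398 and 471 CPM (log2 fold change -3.57, SE 0.36, adjusted p = 0.0012), Vsig4, the complement receptor of resident macrophages, from 234 and 253 CPM to 19.9 and 22.2 CPM (log2 fold change -3.64, SE 0.24, adjusted p = 0.00032), Clec4d, a C-type lectin, from 74.5 and 117 CPM to 6.63 and 12.0 CPM (log2 fold change -3.46, SE 0.32, adjusted p = 0.0011), and Syngr1 from 48.0 and 69.3 CPM to 3.24 and 4.41 CPM (log2 fold change -4.03, SE 0.42, adjusted p = 0.0013). Genes of the LAM programme were lower here too, 14 of 26 with 0 higher (median -1.33), with Trem2 at 682 and 788 CPM in WT-Veh against 74.5 and 87.1 CPM in ob/ob-Veh. The same list was also lower in classes that are not macrophages, with 18 of 25 in T and NK-like and 18 of 26 in EC-like cells. Of the genes called in PVM-like cells, 93 of 171 higher (54.4%) and 83 of 210 lower (39.5%) had at least 2 times the level in another class, and the part of RNA from other cells was not tested. LAM-like cells were not among the classes compared. Lysosomal genes were lower in 8 of 27, with Ctsd, cathepsin D, at 2613 and 3457 CPM in WT-Veh against 1175 and 956 CPM in ob/ob-Veh, and edgeR called 0 of 84 ribosomal protein genes (median -0.57), with 30 at an unadjusted p under 0.05 and 9 called by DESeq2.

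In LAM-like cells the ob/ob-Veh sums rest on 32 and 57 barcodes, of which the cluster of dividing cells held 14 and 7. In WT-Veh it held 871 of 3212 and 134 of 1051. Cell mix and change per cell cannot be told apart in this sum. Of the 373 genes called here, 142 kept their call with finer clusters. Of 12041 genes 196 (1.63%) were called higher and 177 (1.47%) lower, against 330 and 88 with library size alone, and 44 to 629 in all when 1 vehicle library was left out. Perivascular genes were higher in 12 of 22 and lower in 2 (median 1.51 beside -0.10 over all genes tested), and of all genes called higher 95 of 196 (48.5%) had at least 2 times the level in another class. PVM-like cells were not among the classes compared, and the part of their RNA in the LAM-like sum was not tested. The eosinophil attractant Ccl24 rose from 16.9 and 30.1 CPM to 581 and 554 CPM (log2 fold change 4.42, SE 0.33, adjusted p = 3.5e-08). Cx3cr1, the fractalkine receptor, rose from 4.12 and 2.61 CPM to 43.4 and 74.2 CPM (log2 fold change 3.96, SE 0.46, adjusted p = 4.1e-05), with no call with finer clusters. H2-M2, a nonclassical MHC class I gene, stood at 0.724 and 0.501 CPM in WT-Veh against 30.4 and 20.6 CPM in ob/ob-Veh (log2 5.05). Marco, a scavenger receptor, stood at 1.67 and 1.90 CPM in WT-Veh against 130.2 and 4.12 CPM in ob/ob-Veh, with nearly all of its ob/ob-Veh level in replicate 1, and lost its call without that library. Fn1, fibronectin, rose from 112 and 54.9 CPM to 924 and 855 CPM (log2 3.20).

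The LAM programme itself, which chose these cells, was lower in 8 and higher in 3 of 26. Trem2 stood at 1753 and 1816 CPM in WT-Veh against 976 and 674 CPM in ob/ob-Veh (log2 -1.31) and Ctsl at 4159 and 4409.7 CPM in WT-Veh against 1049.9 and 2032 CPM in ob/ob-Veh (log2 -1.66), whereas Itgax, the integrin CD11c, went from 50.4 and 53.3 CPM to 178 and 169 CPM (log2 1.55) and Mmp12, macrophage elastase, from 223 and 193 CPM to 980.5 and 1107 CPM (log2 2.13). Among the decreases Hmga2 (59.9 and 48.7 CPM in WT-Veh against 0 and 10.3 CPM in ob/ob-Veh), Dppa3 (37.2 and 36.0 CPM in WT-Veh against 0 and 8.25 CPM in ob/ob-Veh), C1qtnf12 (32.1 and 27.6 CPM in WT-Veh against 13 and 2.06 CPM in ob/ob-Veh) and Mtap, of methionine salvage (26.6 and 21.9 CPM in WT-Veh against 4.34 and 6.18 CPM in ob/ob-Veh), each lost the call when at least 1 ob/ob-Veh library was left out.

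In monocyte-like cells of ob/ob-Veh Retnla, Fn1 and Il6 were higher and Hp, Mmp8 and Il1b lower. Different clusters held most of these cells in the 2 groups: that led by Lyz1 and Ear2, with Retnla among its leading genes, held 251 and 85 barcodes of WT-Veh and 804 and 470 of ob/ob-Veh, and that led by Chil3, with Il1b among its leading genes, 361 and 94 against 129 and 57. Cell mix and change per cell cannot be told apart in this sum. Of 25 TNF and NF-kappaB genes 4 were higher and 1 lower (median 0.02). Of 9874 genes 187 (1.89%) were called higher and 224 (2.27%) lower, against 161 and 140 with library size alone. Retnla rose from 3559 and 2409.6 CPM to 21381 and 21017 CPM (log2 2.75), Fn1 from 2057 and 1814 CPM to 5981 and 9164 CPM (log2 1.87) and the cytokine Il6 from 88.7 and 66.1 CPM to 247 and 406 CPM (log2 1.96). Il1b, interleukin 1 beta, went the other way, from 1365 and 1439.7 CPM to 649 and 692 CPM (log2 -1.14). Aqp9, a channel for glycerol and water, rose from 7.99 and 6.89 CPM to 52.4 and 91.0 CPM (log2 fold change 3.13, SE 0.46, adjusted p = 0.00079) and Hspa1b from 24.0 and 15.2 CPM to 152 and 148 CPM (log2 fold change 2.81, SE 0.40, adjusted p = 0.00079), while Nos1ap (3.20 and 2.76 CPM in WT-Veh against 20.3 and 37.0 CPM in ob/ob-Veh) and Thsd4 (3.20 and 0 CPM in WT-Veh against 20.1 and 28.1 CPM in ob/ob-Veh) were low and lost their calls without single libraries.

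Haptoglobin (Hp) fell from 146 and 156 CPM to 17.8 and 14.6 CPM (log2 fold change -3.27, SE 0.42, adjusted p = 0.00036), and with barcodes assigned singly to classes its sign turned. Mmp8, the neutrophil collagenase, fell from 21.6 and 23.4 CPM to 1.79 and 3.56 CPM (log2 fold change -3.22, SE 0.47, adjusted p = 0.00079) and Trem3 from 28.8 and 12.4 CPM to 1.79 and 3.56 CPM (log2 -3.17, no call without WT-Veh or ob/ob-Veh replicate 1). The neutrophil marker list summed to 1466 and 682 CPM of the monocyte-like UMIs in WT-Veh and to 182 and 388 CPM in ob/ob-Veh, and its part in these genes was not tested. Gngt2, a G-protein subunit of nonclassical monocytes, fell from 174 and 182 CPM to 16.0 and 33.4 CPM (log2 fold change -2.98, SE 0.36, adjusted p = 0.00018). The LAM programme was lower in 17 of 26 genes and collagens in 5 of 14, mostly genes with higher levels in macrophage-like or APC-like cells.

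DC-like and BC-like cells gave few calls. In DC-like cells 44 of 9283 genes (0.474%) were called higher and 75 (0.808%) lower, against 48 and 35 with library size alone. Hspa1b rose from 24.1 and 17.4 CPM to 194 and 154 CPM (log2 fold change 2.86, SE 0.36, adjusted p = 0.00019) and was the only named DC gene that held when each of the 4 vehicle libraries was left out. The others were the lectin Cd209c (2.61 and 0.579 CPM in WT-Veh against 14.4 and 26.1 CPM in ob/ob-Veh), Sv2b (1.30 and 2.90 CPM in WT-Veh against 29.3 and 17.6 CPM in ob/ob-Veh) and the receptor Adgrg5 (3.26 and 4.05 CPM in WT-Veh against 34.8 and 13.9 CPM in ob/ob-Veh), which were higher, and Ppp1r14a (27.4 and 32.4 CPM in WT-Veh against 5.52 and 11.5 CPM in ob/ob-Veh), the enolase Eno3 (31.9 and 46.9 CPM in WT-Veh against 14.9 and 9.70 CPM in ob/ob-Veh), Bcl2l14 (39.8 and 52.1 CPM in WT-Veh against 17.4 and 14.6 CPM in ob/ob-Veh) and Tspan3 (134 and 119.9 CPM in WT-Veh against 63.3 and 61.2 CPM in ob/ob-Veh), which were lower. Of the 75 genes lower, 70 had at least 2 times the level in another class, while the macrophage markers there went from 2063 and 1632 CPM to 526 and 804 CPM. In BC-like cells 5 of 4087 genes (0.122%) were called higher and 29 (0.71%) lower. Cxcl10, an interferon-induced chemokine, rose from 12.2 and 3.41 CPM to 105 and 117 CPM (log2 fold change 3.6, SE 0.76, adjusted p = 0.032), without a call by DESeq2, and all 29 lower genes had at least 2 times the level in another class.

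T and NK-like cells of ob/ob-Veh had more Il1rl1, Il2ra and Il5 transcripts, known from lymphocytes that respond to interleukin 33. Cd8b1 and Tk1 transcripts were fewer. With finer clusters, a cluster led by Il2ra, Csf2 and Gata3, with Il1rl1 among its leading genes, held 1 and 11 of these barcodes in WT-Veh against 192 and 136 in ob/ob-Veh, so cell mix and change per cell cannot be told apart in this sum either. Of 9964 genes 260 (2.61%) were called higher and 239 (2.4%) lower, against 343 and 98 with library size alone, and 224 in all once doublets were left out. Il1rl1, the interleukin 33 receptor ST2, rose from 32.5 and 8.53 CPM to 549.9 and 410.2 CPM (log2 fold change 4.57, SE 0.53, adjusted p = 0.00032). Il2ra, the high-affinity interleukin 2 receptor CD25, rose from 29.4 and 24.4 CPM to 342 and 311 CPM (log2 3.44). Il5, the eosinophil growth factor of type 2 lymphocytes, stood at 6.19 and 0 CPM in WT-Veh against 66.9 and 45.7 CPM in ob/ob-Veh (log2 fold change 4.75, SE 0.77, adjusted p = 0.004), and lost its call without WT-Veh replicate 2 and by DESeq2. Arg1, which such innate cells also make, stood at 9.29 and 3.41 CPM in WT-Veh against 88.5 and 63.3 CPM in ob/ob-Veh (log2 3.66).

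Further increases were Hs3st1, a heparan sulfate sulfotransferase (3.10 and 2.84 CPM in WT-Veh against 121 and 101 CPM in ob/ob-Veh, log2 5.03), Ccdc184 (1.55 and 1.71 CPM in WT-Veh against 52.0 and 52.6 CPM in ob/ob-Veh, log2 4.72) and Dgat1, which makes triglyceride (48.0 and 60.8 CPM in WT-Veh against 388 and 525 CPM in ob/ob-Veh, log2 2.84). Of 26 activation and effector genes 5 were higher and 3 lower (median -0.01). The 3 were Lag3, Cd8b1 and Gzmk. Lag3, an inhibitory receptor of T cells, fell from 4.64 and 23.9 CPM to 0.598 and 2.29 CPM (log2 -3.69). Most of its level lay in WT-Veh replicate 2, and the other libraries held few UMIs of it. Cd8b1, the CD8 beta chain, fell from 60.4 and 186 CPM to 38.3 and 38.9 CPM (log2 -1.90). The granzyme gene Gzmk, with overlapping groups, stood at 4.64 and 104 CPM in WT-Veh against 8.97 and 2.29 CPM in ob/ob-Veh. Without 1 vehicle library 3 or 4 of the list were called higher, and 4 were called lower without WT-Veh replicate 1 but 0 without any of the other 3. In the TNF list 8 of 25 were higher and 1 lower, with Nfkb1, an NF-kappaB subunit, from 109.9 and 198 CPM to 996 and 1013 CPM (log2 2.5). Tk1 fell from 31.0 and 38.7 CPM to 4.18 and 6.86 CPM, Hist1h1b from 85.1 and 43.8 CPM to 15.5 and 3.81 CPM, Fdps from 29.4 and 23.3 CPM to 5.38 and 2.29 CPM and Med29, a Mediator subunit, from 38.7 and 30.1 CPM to 7.17 and 4.57 CPM, and none of these 4 was called by DESeq2. Macrophage markers in this sum went from 3886 and 2354 CPM to 922 and 1358 CPM, their part being untested, and 18 of 25 LAM programme genes were called lower.

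EC-like cells of ob/ob-Veh had more Scd1 and Fasn and less Plvap and Lrg1, while RNA of adipocytes, mural cells and erythrocytes in the same sum was also higher. Of 10942 genes 191 (1.75%) were called higher and 262 (2.39%) lower, against 239 and 218 with library size alone, and 78 in all once doublets were left out. Scd1, the stearoyl-CoA desaturase, rose from 9.91 and 14.2 CPM to 384 and 236 CPM (log2 fold change 4.52, SE 0.39, adjusted p = 0.00015). Fasn, fatty acid synthase (6.61 and 7.99 CPM in WT-Veh against 31.8 and 44.8 CPM in ob/ob-Veh, log2 2.27), Dgat2, which makes triglyceride (1.1 and 3.13 CPM in WT-Veh against 22.1 and 12.9 CPM in ob/ob-Veh, log2 2.64), and Adig, adipogenin (2.20 and 1.74 CPM in WT-Veh against 19.4 and 12.9 CPM in ob/ob-Veh, log2 2.97), rose with it. In the adipogenesis list 4 of 29 were higher and 2 lower (median -0.03), 1 or 2 being higher when a vehicle library was left out. The adipocyte RNA markers in the EC-like sum stood at 54.0 and 57.0 CPM in WT-Veh and at 1226 and 1035 CPM in ob/ob-Veh, mural cell markers at 234 and 312 against 1644 and 1650 CPM, and erythroid markers at 124 and 292 against 1033 and 2818 CPM. Their part in these results was not tested.

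Other EC-like increases were Cdh23, a cadherin (1.1 and 1.74 CPM in WT-Veh against 38.7 and 33.6 CPM in ob/ob-Veh, log2 4.40), Cdo1, cysteine dioxygenase (1.1 and 3.48 CPM in WT-Veh against 48.4 and 42.8 CPM in ob/ob-Veh, log2 3.92), and Rbp4, the retinol carrier (2.20 and 2.09 CPM in WT-Veh against 31.8 and 33.0 CPM in ob/ob-Veh, log2 3.83). Adipocyte RNA, higher in this sum in ob/ob-Veh, was not among the classes whose levels were compared. Its part in these increases was not tested. Plvap, which forms the diaphragms of endothelial fenestrae and caveolae, fell from 169.6 and 127 CPM to 34.6 and 27.3 CPM (log2 fold change -2.37, SE 0.29, adjusted p = 0.0012). Lrg1, a secreted regulator of vessel growth, fell from 226 and 70.9 CPM to 18.7 and 20.1 CPM (log2 fold change -3.00, SE 0.49, adjusted p = 0.0072), Tmem252 from 260.0 and 181 CPM to 32.5 and 23.6 CPM (log2 fold change -3.09, SE 0.40, adjusted p = 0.0018), and Cst6, a cystatin, from 25.3 and 38.6 CPM to 5.53 and 5.46 CPM (log2 fold change -2.67, SE 0.36, adjusted p = 0.0025). Scd1 and these 7 genes held their calls whichever vehicle library was left out. Of 20 VEGF, angiopoietin and lipid uptake genes edgeR called 0 (median 0.43), with 7 at an unadjusted p under 0.05 and 3 called by DESeq2, and of 20 interferon-stimulated genes Ifit1 (12.1 and 13.6 CPM in WT-Veh against 42.2 and 39.6 CPM in ob/ob-Veh, log2 1.56) and Ifit2 (log2 1.58) were higher. Igfbp3, which binds IGFs, rose from 49.6 and 26.1 CPM to 124 and 176 CPM (log2 1.97), Tnc from 2.20 and 6.26 CPM to 34.6 and 30.5 CPM (log2 2.60), the opposite of its decrease in APC-like cells, a difference that was not tested. Of the 262 genes lower, 183 (69.8%) had at least 2 times the level in another class.

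Mesothelial-like cells, more numerous in ob/ob-Veh, had less Bmp3, Ltbp2 and C4b there. Of 7578 genes 91 (1.2%) were called higher and 205 (2.71%) lower, against 106 and 152 with library size alone, and 168 in all once doublets were left out. Bmp3, a bone morphogenetic protein, fell from 117 and 173 CPM to 10.3 and 12.7 CPM (log2 fold change -3.73, SE 0.29, adjusted p = 0.00038), Ltbp2, of the microfibrils, from 88.4 and 128 CPM to 4.66 and 2.83 CPM (log2 fold change -4.87, SE 0.43, adjusted p = 0.00074), and the muscle calcium-release protein gene Trdn from 46.1 and 29.2 CPM to 3.73 and 2.83 CPM (log2 fold change -3.56, SE 0.47, adjusted p = 0.0036). The complement gene C4b fell from 496 and 284 CPM to 52.9 and 35.7 CPM (log2 -3.22). Saa3, an acute phase protein, stood at 265 and 11.7 CPM in WT-Veh against 3.03 and 1.42 CPM in ob/ob-Veh (log2 fold change -5.99, SE 1.22, adjusted p = 0.025), with most of its level in WT-Veh replicate 1, and lost its call without that library or without either ob/ob-Veh library. Trdn lost its call without WT-Veh replicate 1. Increases were small in level: Actn3, an alpha-actinin (5.77 and 1.95 CPM in WT-Veh against 29.4 and 47.3 CPM in ob/ob-Veh), Slc23a4, a nucleobase transporter (5.77 and 1.95 CPM in WT-Veh against 35.9 and 30.6 CPM in ob/ob-Veh), Spink2, a protease inhibitor (3.84 and 9.73 CPM in WT-Veh against 37.3 and 59.7 CPM in ob/ob-Veh), and Pdk4 (5.77 and 3.89 CPM in WT-Veh against 42.4 and 27.5 CPM in ob/ob-Veh) each lost the call in at least 3 of the 4 fits that left out 1 vehicle library. Fbln1, the matrix protein fibulin 1, rose from 284 and 438 CPM to 956 and 1158 CPM (log2 1.48). Macrophage markers in this sum went from 2397 and 1354 CPM to 319 and 313 CPM.

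**Figure D4:**
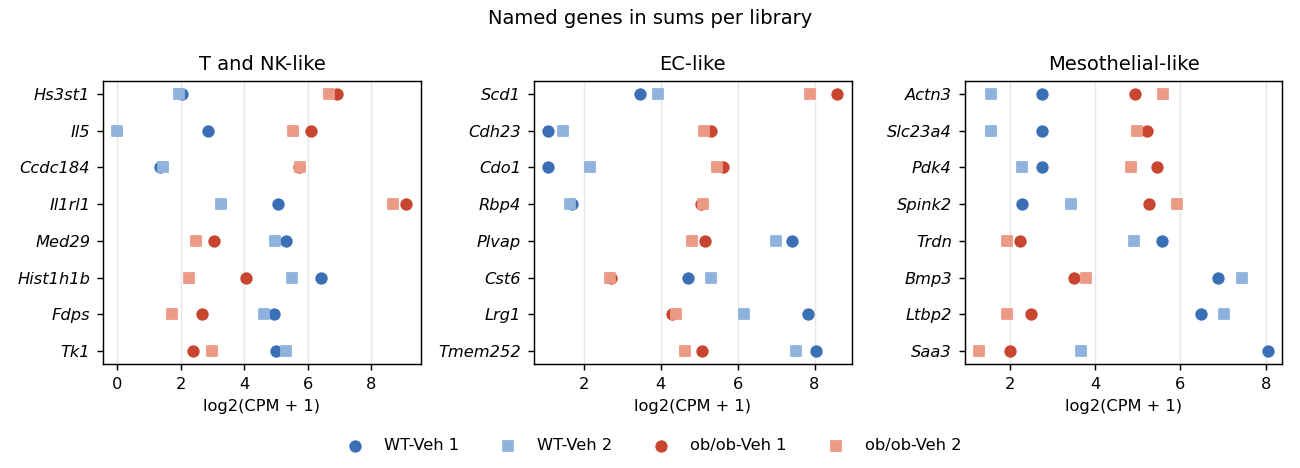
Levels per library, as log2(CPM + 1) on the x axis, of the 8 genes per class with the largest changes among those whose groups did not overlap, in T and NK-like, EC-like and mesothelial-like cells. The points of the groups are apart by this choice, and Saa3 shows the widest gap within a group (265 and 11.7 CPM in WT-Veh).

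A few genes were higher in most classes. Sult1e1 was called higher in APC-like (log2 5.12), macrophage-like (4.65), LAM-like (4.52), PVM-like (4.2), monocyte-like (4.99), DC-like (3.42), T and NK-like (6.37), EC-like (6.12) and mesothelial-like cells (3.17), with its highest level in APC-like cells, and the part of APC RNA in the other classes was not tested. Hspa1b was called higher in APC-like (log2 1.71), macrophage-like (3.27), PVM-like (1.78), monocyte-like (2.81), DC-like (2.86), T and NK-like (2.76), EC-like (2.27) and mesothelial-like cells (1.98). The median of the immediate early list was above 0 in every class, from 0.25 in EC-like to 1.41 in macrophage-like cells, and edgeR called 0 of its 21 genes tested in BC-like cells, with 10 at an unadjusted p under 0.05 and 0 called by DESeq2. Median mitochondrial shares per barcode were 3.34% and 3.46% in WT-Veh and 4.68% and 5.93% in ob/ob-Veh, and the part of cell handling in these genes was not tested.

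**Figure D5:**
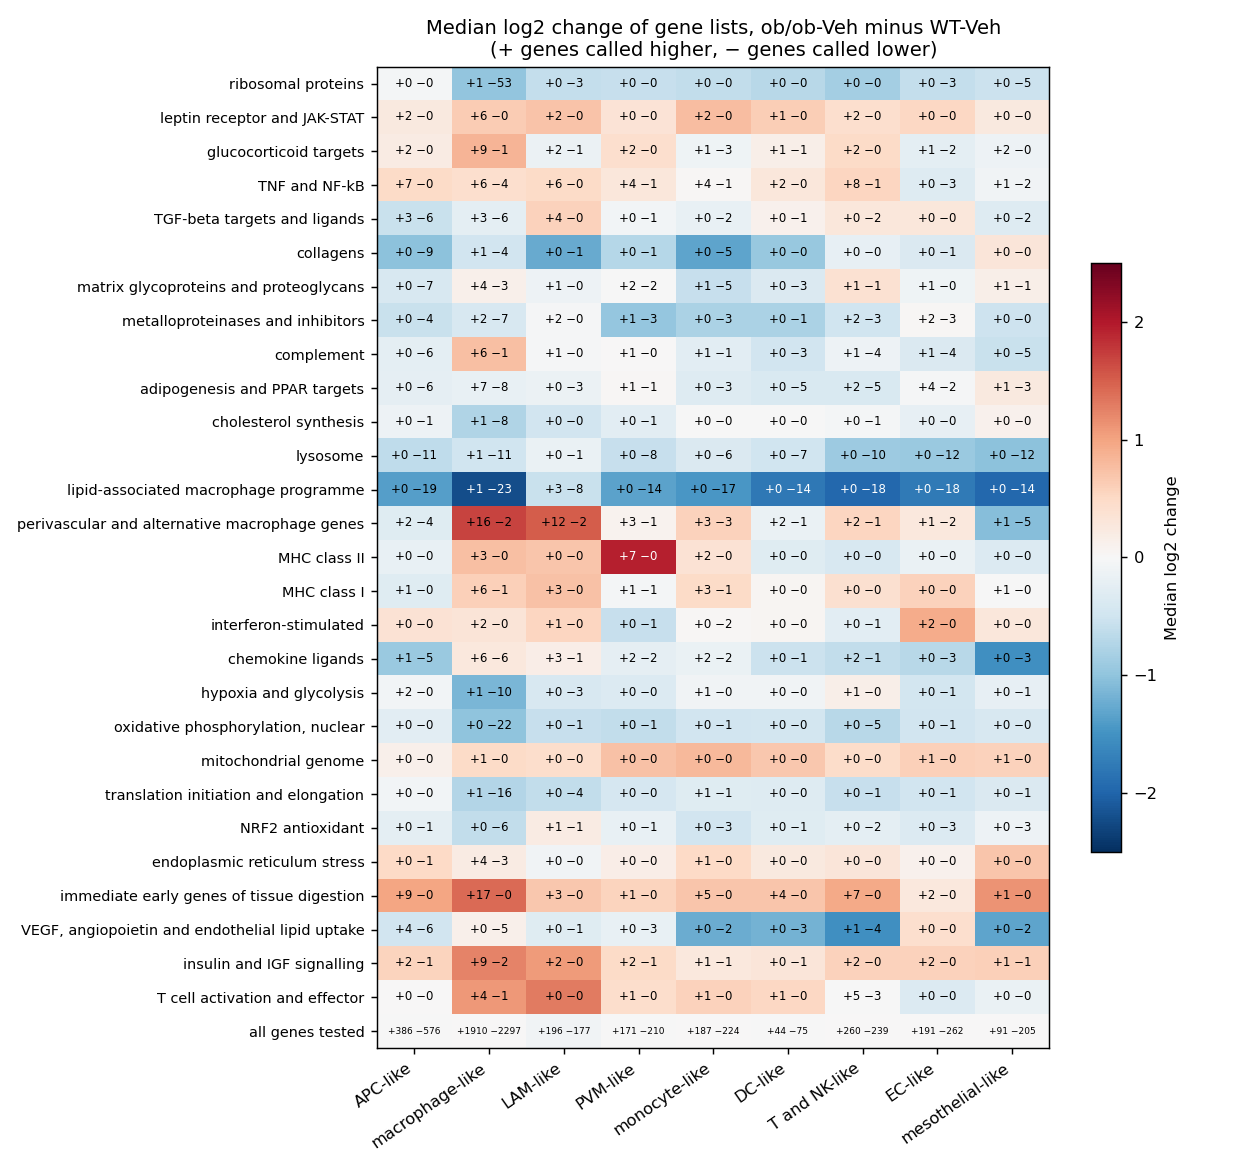
Median log2 change (ob/ob-Veh minus WT-Veh, colour) of each gene list (rows) in each class (columns), with the numbers of genes called higher (+) and lower (−) in each cell and all genes tested in the bottom row. The deepest blue is the LAM programme in macrophage-like cells (median -2.21, 23 lower) and the deepest red MHC class II in PVM-like cells (median 1.94, 7 higher).

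A test of the difference between the changes in APC-like and macrophage-like cells, with the library as a block, called 1613 of 14530 genes (11.1%) more positive in APC-like cells and 1000 (6.88%) more negative, and 818 and 1513 with library size alone. Fitting the 4 vehicle libraries alone also turned the balance, with 762 more positive and 1048 more negative. Nt5e, Ptgs2 and Prokr1 rose in APC-like cells by more than in macrophage-like cells, with differences of 4.97 (SE 0.66, adjusted p = 0.00081), 3.55 (SE 0.55, adjusted p = 0.002) and 3.25 (SE 0.60, adjusted p = 0.0049). Pla2g2d and Mgl2 rose by more in macrophage-like cells, with differences of -4.16 (SE 0.57, adjusted p = 0.00098) and -2.04 (SE 0.48, adjusted p = 0.014). Sult1e1, with a difference of 0.46 (SE 0.34, adjusted p = 0.39), and Mgp, with -0.76 (SE 0.35, adjusted p = 0.15), did not pass. Cell mix and change per cell cannot be told apart in either sum, so these differences are not shown to hold per cell.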

How the data were processed

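Single-cell RNA-seq of SVF cells was analysed for 4 of the 6 eWAT libraries, and the 2 ob/ob-Rosi libraries entered the clustering, the filter on low counts and the shared estimate of spread. The authors deposited UMI counts per gene and barcode for 31053 genes, made with Cell Ranger 3.0.2 on mm10 (GRCm38) after bcl2fastq 2.19.1.403, per the labels. Barcodes with 700 to 22000 UMIs, 200 to 6000 genes and under 25% mitochondrial UMIs were kept, as the study's methods state. Doublets were kept, and their removal by Scrublet was an alternative. Clusters were made with scanpy 1.11.5 and leidenalg 0.10.2 on 2000 variable genes, 25 components and 20 neighbours at resolution 1, which gave 27 clusters, without integration. Clusters were named from marker lists, by a rule adjusted after the clusters were seen and before groups were compared.

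Counts were summed per class and library and tested with edgeR 4.0.16 in R 4.3.3 (TMM, filterByExpr, quasi-likelihood, group as the only term, 3 residual degrees of freedom), in classes with at least 20 barcodes in each vehicle library. SEs are the log2 fold change divided by the square root of F. The p-values measure the spread between mice, with 1 mouse per library, and an exact permutation test of 2 against 2 could not go below p = 0.33. Named genes were the 8 largest changes per direction in APC-like and macrophage-like cells and the 4 largest in other classes, among called genes whose groups did not overlap, with at least 20 CPM in the higher group, over 3 UMIs in the lower group and at least 0.5 times the level of any other class, leaving out markers and Rpl, Rps, mt-, Gm and Rik genes. The classes compared for this level were APC-like, macrophage-like, monocyte-like, DC-like, BC-like, T and NK-like, EC-like and mesothelial-like cells. Levels were compared as means over the libraries of the group where the gene stood higher. LAM-like and PVM-like cells were not compared with each other, and adipocyte RNA was not among the classes. Of each gene list up to 4 called members by size of change were to be named, and further members were chosen after their values were seen. The members and lists were chosen with earlier results of these data known. Intervals and floors (3 counts) cover counting error only. Gene positions are from GENCODE vM21. 31011 of the genes had one. Simulated counts served as a self-test, in which most 2-fold changes were missed and false calls passed the nominal rate in APC-like and PVM-like sums. Alternatives were DESeq2 1.42.0, library size alone, no filter on low counts, the replicate number as a block, the 4 vehicle libraries alone, resolution 2, barcodes assigned singly, doublets left out and each library left out.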

Additional observations from a re-analysis of the deposited data

Results flagged for a closer look

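The ob/ob-Veh minus WT-Veh change of 15 named genes differed between APC-like and macrophage-like cells in the edgeR test of the difference itself, given here as the APC-like minus the macrophage-like log2 change. It was above 0 for Shisa9 (7.77, SE 0.53, adjusted p = 1.6e-05), Nt5e (4.97), Ptgs2 (3.55), Prokr1 (3.25), Hmga2 (3.24), Dhrs9 (2.20), Ccnb1 (2.09) and Tk1 (1.23), and below 0 for Pla2g2d (-4.16), Syngr1 (-4.03, SE 0.52, adjusted p = 0.00069), BC035044 (-2.92), Mgl2 (-2.04), A4galt (-1.75), Timp1 (-1.46) and Hspa1b (-1.44). Syngr1 and Timp1 were lower in both classes and fell further in APC-like cells. Hmga2, Ccnb1 and Tk1 were lower in both and fell further in macrophage-like cells. Cell mix and change per cell cannot be told apart in either sum. A LAM-like cluster led by Cenpf, Prc1 and Hist1h1b held 871 and 134 barcodes of WT-Veh but 14 and 7 of ob/ob-Veh. Syngr1 was among the leading genes of a LAM-like cluster led by Mmp12, Gpnmb and Spp1. The part of macrophage RNA in its APC-like level was not tested. Timp1 led an APC-like cluster with few barcodes of ob/ob-Veh.

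A cluster that took no class name, led by Akr1b7, Crisp1 and Defb42, held 104 barcodes of ob/ob-Veh replicate 2, 2 of WT-Veh replicate 1 and 0 of each other eWAT library. Crisp1 and Defb42 are known from the epididymis, which adjoins this depot. The cluster entered no class sum.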

How the results depend on the processing

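The 2 libraries per group and the shared spread limit these counts, and 20 of the 89 named genes lost their call without WT-Veh replicate 1, 15 without WT-Veh replicate 2, 16 without each of the ob/ob-Veh libraries, 13 by DESeq2, 7 with library size alone and 6 with finer clusters, none changing sign there. With barcodes assigned singly 8 of 81 lost it and Hp in monocyte-like cells reversed, to 0.62. LAM-like cells could not be fitted that way, having too few barcodes.

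Leaving out 1 library at a time, the rosiglitazone libraries included, gave from 446 to 3379 called genes in whole libraries, 240 to 1308 in APC-like, 1085 to 4876 in macrophage-like, 44 to 849 in LAM-like, 48 to 683 in PVM-like, 115 to 795 in monocyte-like, 50 to 310 in DC-like, 29 to 91 in BC-like, 84 to 1548 in T and NK-like, 101 to 1012 in EC-like and 36 to 397 in mesothelial-like cells, and 737 to 2520 for the difference between APC-like and macrophage-like cells. In the same fits the log2 change in cell number ran from 0.61 to 0.82 (APC-like), -1.25 to -0.88 (macrophage-like), 0.97 to 1.62 (monocyte-like), 2.52 to 2.55 (mesothelial-like), -0.82 to -0.24 (BC-like), -0.29 to -0.16 (DC-like), -1.08 to 0.92 (EC-like), 1.46 to 8.73 (lymphatic EC-like), 0.61 to 0.87 (mast-like) and -0.62 to 1.07 (T and NK-like).

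Without a filter on low counts, 1814 genes were called in APC-like, 696 in LAM-like, 1409 in PVM-like, 789 in monocyte-like, 334 in DC-like, 128 in BC-like, 900 in T and NK-like, 1174 in EC-like and 934 in mesothelial-like cells. Fitting the 4 vehicle libraries alone called 719 in PVM-like, 828 in monocyte-like, 319 in DC-like, 59 in BC-like, 1440 in T and NK-like and 963 in EC-like cells, and the change in monocyte-like number (1.29) no longer passed. DESeq2 called 652 in PVM-like and 332 in T and NK-like cells, library size alone 20 in BC-like cells, finer clusters 152 in LAM-like and 982 in PVM-like cells, and single assignment 1888 in monocyte-like and 599 in BC-like cells. Without doublets 224 remained of 499 in T and NK-like, 78 of 453 in EC-like and 161 of 296 in mesothelial-like cells, where 168 were called. The changes in APC-like and monocyte-like number no longer passed with single assignment (0.64 and 0.65) or as a share of barcodes outside macrophage-like clusters (0.10 and 0.63). The causes were not tested.

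The replicate numbers name mice and are not stated to pair them. Deviations of same-numbered WT-Veh and ob/ob-Veh libraries correlated at 0.21 in whole libraries, 0.32 in APC-like, 0.081 in macrophage-like, 0.17 in PVM-like and 0.26 in EC-like sums, and those of each vehicle group with ob/ob-Rosi at 0.13 to 0.33. With the replicate number as a block, 1749 genes were called in APC-like, 732 in LAM-like, 1426 in PVM-like, 18 in BC-like, 901 in T and NK-like, 1569 in EC-like and 841 in mesothelial-like cells, the APC-like number (0.72) no longer passed, and 1 of the 89 named genes lost its call.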

Other observations

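A cluster of APC-like cells led by Adamts4, Ptx3 and Tcf21, with Il6, Myc and Socs3 among its leading genes, held 1 and 7 barcodes of WT-Veh and 710 and 335 of ob/ob-Veh. These numbers are given without a test, since the clusters rest on genes that differ between the groups.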
